A study of Mus musculus with 6 samples.

Results

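The mitochondrial ribosomal protein genes are the nuclear genes that carry the symbols Mrpl (large subunit) or Mrps (small subunit) followed by a number. They were taken by that symbol from an array table of mouse spleen, and 111 of its 31692 probes, for 77 of its 16361 genes with a symbol, belong to them. Of these, 66 probes read 48 Mrpl genes and 45 probes read 29 Mrps genes. Of the protein-coding genes with such symbols in RefSeq, Mrpl58 was the only one without a probe under its own symbol, and the table carries it under the older name Ict1.

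The mitochondrial ribosome is built in the matrix from ribosomal RNAs that mitochondrial DNA encodes and from proteins that are all made in the cytosol and imported. It makes the few membrane proteins of the respiratory chain that mitochondrial DNA encodes, so each of its subunits needs products of both genomes. Many of its proteins have relatives in bacterial ribosomes and others are found only in mitochondria. Spleen holds resting and dividing lymphocytes, phagocytes and, in mice, red cell precursors, all of which make mitochondria to differing extents.

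The RNA came from spleens of female NOD mice, an inbred strain that develops autoimmune diabetes. The mice entered the study at 6 weeks of age and received a daily intraperitoneal injection until 18 weeks, when spleens were taken after a fast of 16 to 18 h. MOTS-c, a small peptide whose reading frame lies in the mitochondrial genome, was given to the MOTS-c group (3 samples) in a dose of 0.5 mg/kg/day, and the vehicle group (3 samples) received a peptide of scrambled sequence. Each sample was hybridised to a 1-colour Agilent array. Whether each sample is a mouse of its own is not in the labels, and p-values therefore cover the spread among these arrays, which may be technical. Values below are log2 of the quantile-normalized signal, and a difference is the MOTS-c mean minus the vehicle mean with its standard error (SE) from limma over 3 and 3 arrays. Values of a group are listed for samples 1, 2 and 3 in that order.

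Between 61.8% and 64.0% of the spots of the 56605 probes were well above background on each array, and no spot was saturated. Every member probe was well above background on all 6 arrays. Vehicle 1 and vehicle 2 lay on slide 1, while vehicle 3 and the 3 MOTS-c arrays lay on slide 2, so slide and group can be told apart only through vehicle 3. Vehicle 3 also stood apart in pancreatic acinar genes: over 8 of 10 listed markers its mean deviation from the mean of the arrays was 4.41, against 1.30 and -1.56 in vehicle 1 and 2 and -2.45 to 0.05 in the MOTS-c arrays. Spleen markers were present, with Cd3e of T cells at 11.24 to 13.41.

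Promoters of these genes are known for sites of ETS-family factors such as GABP, of YY1 and of NRF1, factors that act on many nuclear genes of mitochondria. RefSeq promoter windows (GRCm38.p6, 250 bases before to 50 after the start site) were given for 68 of the 77 genes, in 74 windows. On either strand, CCGGAAG (ETS) was in 33.8% of the member windows against 8.86% of all 32851 windows. AAGATGGC (YY1) was in 16.2% against 2.75%, and the NRF1 motif, searched with any base at its centre, in 17.6% against 4.60%. At least one of these was in 56.8% of the member windows and 14.7% of all. Other motifs differed less by ratio. GGGCGG (GC box) was in 52.7% against 35.7% and CCAAT in 40.5% against 37.4%. CACGTG (E box) was in 9.46% against 7.15%, and AGATAA, a site of GATA factors, in 14.9% against 11.2%. Of the 12 YY1 matches, 8 began after the start site, with a median position of 16 bases from it, while the ETS matches had a median position of -19 and the NRF1 matches of -43.5. A match describes letters in a window and not a bound site, and overlaps between motifs were not removed. The windows that follow are given 5′ to 3′ on the gene's strand, with ETS, YY1 and NRF1 matches in capitals. Mrps18c (chr5:100798509-100798808, plus strand) and Mrpl57 (chr14:57825989-57826288, plus strand) are genes with low values after MOTS-c, and Mrps12 (chr7:28741772-28742071, minus strand) is one near 0. Mrpl50 (chr4:49521034-49521333, minus strand) and Mrpl24 (chr3:87919294-87919593, plus strand) are the lowest and a high gene, and neither window holds one of the 3 motifs.
Mrps18c: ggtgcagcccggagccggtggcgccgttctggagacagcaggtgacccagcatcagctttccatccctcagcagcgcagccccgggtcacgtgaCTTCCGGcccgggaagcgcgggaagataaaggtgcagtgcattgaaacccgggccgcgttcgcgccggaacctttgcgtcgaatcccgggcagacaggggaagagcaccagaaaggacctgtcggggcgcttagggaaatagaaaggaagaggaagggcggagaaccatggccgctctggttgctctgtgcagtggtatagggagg
Mrpl57: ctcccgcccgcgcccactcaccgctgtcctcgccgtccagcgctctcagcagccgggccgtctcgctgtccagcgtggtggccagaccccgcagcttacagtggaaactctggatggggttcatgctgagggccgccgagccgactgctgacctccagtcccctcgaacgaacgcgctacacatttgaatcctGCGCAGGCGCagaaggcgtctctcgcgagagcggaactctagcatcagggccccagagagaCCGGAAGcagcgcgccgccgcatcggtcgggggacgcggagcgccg
Mrps12: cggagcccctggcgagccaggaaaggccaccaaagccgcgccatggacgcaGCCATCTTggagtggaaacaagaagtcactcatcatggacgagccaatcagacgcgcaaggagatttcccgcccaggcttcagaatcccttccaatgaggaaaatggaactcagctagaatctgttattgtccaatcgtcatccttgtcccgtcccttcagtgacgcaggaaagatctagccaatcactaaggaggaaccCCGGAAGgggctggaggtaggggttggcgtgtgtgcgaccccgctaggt
Mrpl50: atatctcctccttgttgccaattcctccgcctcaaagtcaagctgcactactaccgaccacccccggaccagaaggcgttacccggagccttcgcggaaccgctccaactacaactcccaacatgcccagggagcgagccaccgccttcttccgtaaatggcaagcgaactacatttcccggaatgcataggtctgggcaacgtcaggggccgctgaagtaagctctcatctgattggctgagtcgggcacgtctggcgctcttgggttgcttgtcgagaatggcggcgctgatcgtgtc
Mrpl24: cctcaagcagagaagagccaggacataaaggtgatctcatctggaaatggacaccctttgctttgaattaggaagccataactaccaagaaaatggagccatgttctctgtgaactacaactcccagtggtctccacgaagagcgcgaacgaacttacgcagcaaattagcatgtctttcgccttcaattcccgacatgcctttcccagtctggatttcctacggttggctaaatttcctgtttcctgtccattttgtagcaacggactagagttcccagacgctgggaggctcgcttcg

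The median difference was -0.11 over the 42 member genes with an ETS, YY1 or NRF1 match and -0.21 over the other genes with a window.

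No mitochondrial ribosomal protein gene passed the test between MOTS-c and vehicle. By limma with Benjamini-Hochberg adjustment, 0 of 111 member probes had an adjusted p under 0.05, and so had 0% of all 31692 probes in either direction. The smallest adjusted p was 0.100 among members and 0.0820 among all probes. Of the members, 77 had a negative and 34 a positive difference, so 69.4% were negative against 46.3% of all probes. The median member difference was -0.10 (quartiles -0.26 and 0.05, range -0.69 to 0.81), and that of all probes was 0.036. At an unadjusted p under 0.05 there were 14 lower members, or 12.6%, where 13.7% of all probes met that rule, and 7 higher members, or 6.31%, against 12.2%. The 3 MOTS-c values all lay below the 3 vehicle values in 29 members (26.1%, against 16.7% of all probes) and all above them in 8 (7.21%, against 17.7%). In this fit the share of lower members was thus close to the background by p and above it by lack of overlap. The share of higher members was below it by both. With 75th percentile scaling in place of quantile normalization, the median was -0.16. An unadjusted p under 0.05 was then reached by 23 lower (20.7%, background 14.2%) and 7 higher members (6.31%, background 11.5%). The lower share was thus above the background by p as well. That scaling also moved other groups of genes down. The median of 77 cytosolic ribosomal protein genes went from 0.046 to -0.13, and that of 11 mitochondrially encoded genes from 0.10 to -0.074. All probes had a median of 0.018 with it. A move down with that scaling was thus not particular to the members. Without overlap there were 36 lower (32.4%, against 18.4% of all probes) and 8 higher members (7.21%, against 16.0%) with that scaling. In the authors' deposited table, 13 members had a p under 0.05 with a lower and 3 with a higher fold, against 7.90% and 5.54% of all its probes, none reached a fold of 2, and the smallest adjusted p was 0.370.

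**Figure D1:**
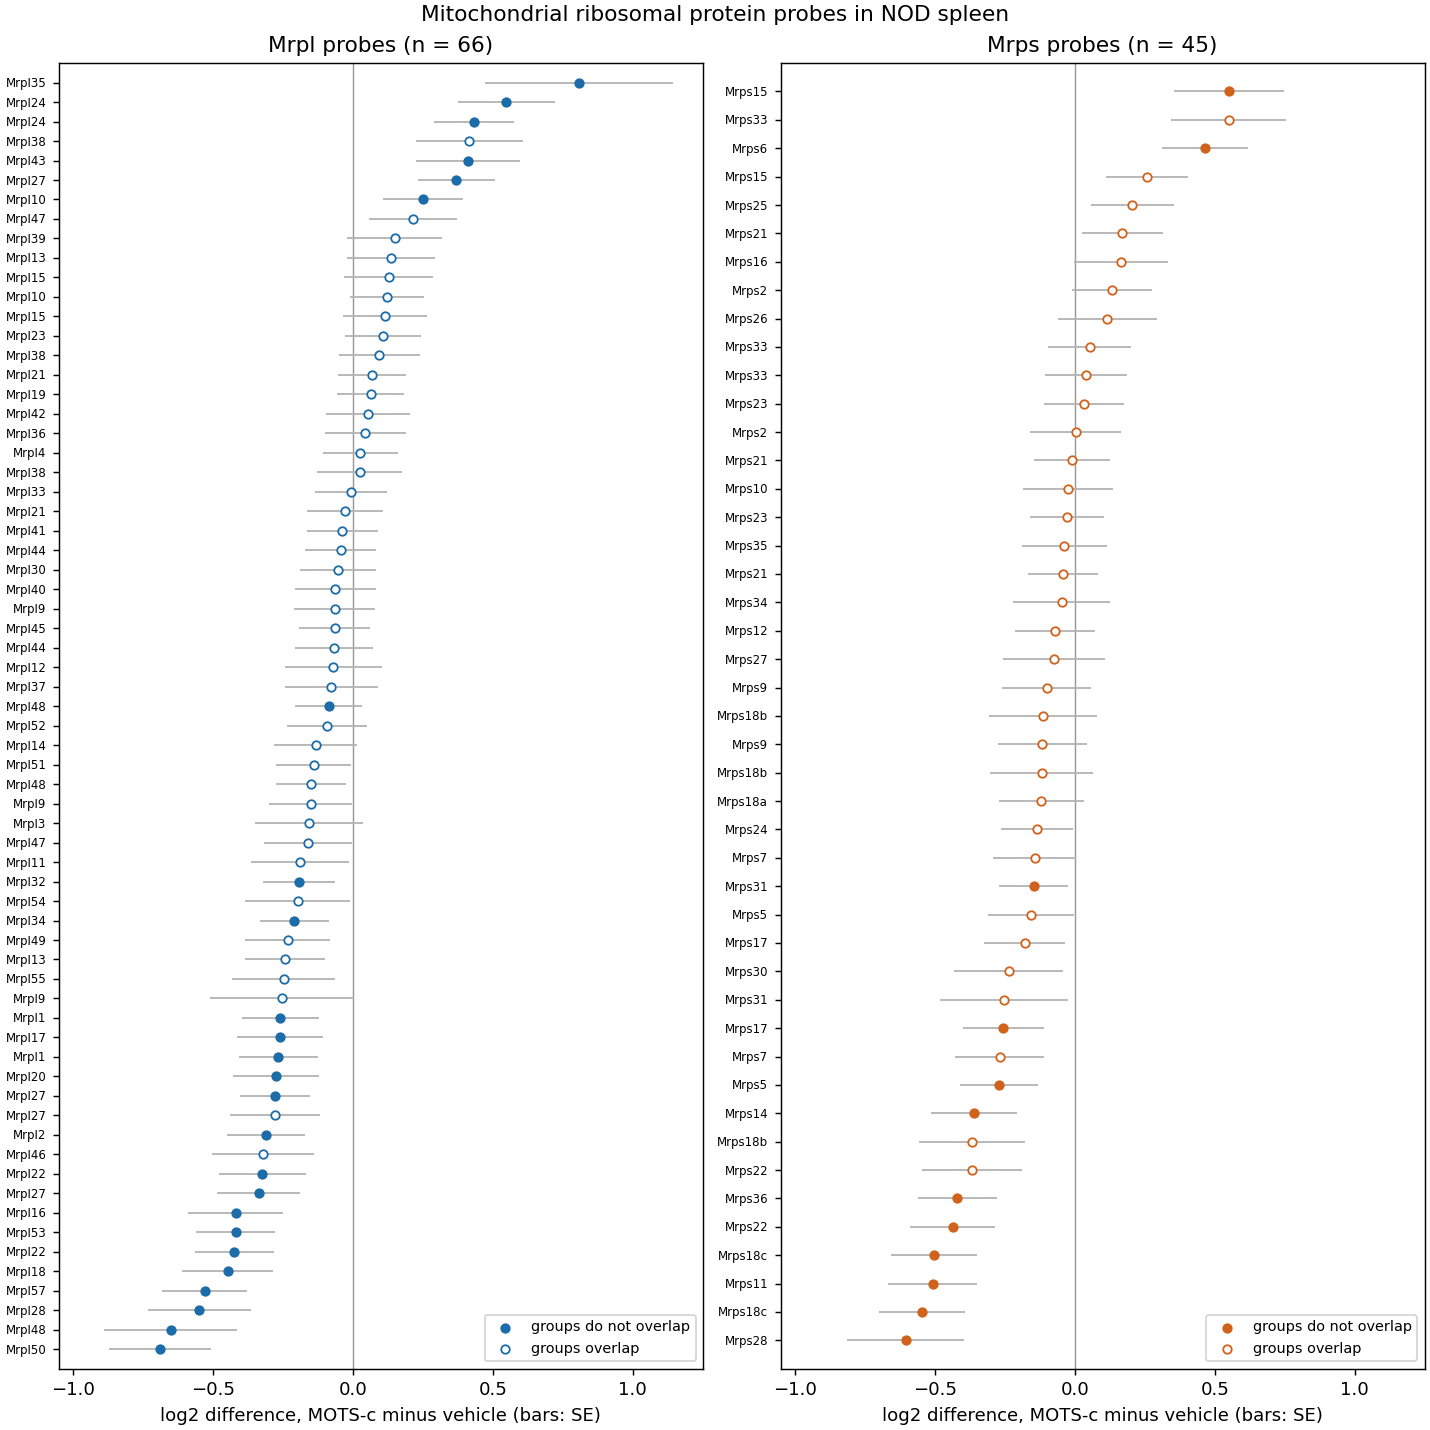
Difference of MOTS-c minus vehicle (log2) for each of the 111 member probes, Mrpl and Mrps shown apart; points are limma estimates, bars their SE over 3 and 3 arrays, and filled points are probes whose groups do not overlap. Most points lie a little below 0, from -0.69 to 0.81, and filled points are more frequent below 0 (29) than above it (8).

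The arrays showed that the vehicle group was not uniform for these genes. The mean deviation of all members from their own mean was 0.060 in vehicle 1, 0.14 in vehicle 2 and -0.066 in vehicle 3, and -0.046, 0.012 and -0.10 in MOTS-c 1, 2 and 3. Vehicle 1 and 2 were thus the highest, and vehicle 3 lay between MOTS-c 1 and MOTS-c 3. Probe by probe, vehicle 3 lay within the range of the MOTS-c values for 32 members, or 28.8%, against 33.1% of all probes. Vehicle 3 was below both other vehicle arrays for 73 of the 111 members, or 65.8%, against 32.9% of all probes. The median of vehicle 3 minus the mean of vehicle 1 and 2 was -0.20 for members and -0.012 for all probes. The median of the MOTS-c mean minus vehicle 1 and 2 was about as far down, at -0.18 for members and 0.021 for all probes. MOTS-c minus vehicle 3, the comparison within slide 2, had a median of 0.047 for members and 0.062 for all probes. A fit with slide as a block gives that same value, because slide 1 holds vehicle arrays only. With the block, 45 members were lower and 66 higher, 32 members having turned from lower to higher and 0 the other way, and in either direction 0 members reached an unadjusted p under 0.05, where the background was 7.18% lower and 2.64% higher. Without vehicle 3 there were 30 lower (27.0%, background 16.1%) and 8 higher members (7.21%, background 13.7%) at an unadjusted p under 0.05. Groups then did not overlap for 62 lower (55.9%, background 25.9%) and 11 higher members (9.91%, background 24.8%). The median moved to -0.035 without vehicle 2 and to -0.18 without vehicle 3. Lower members at an unadjusted p under 0.05 numbered 9 without vehicle 2 (8.11%, background 14.8%). They numbered 8 without MOTS-c 1 (7.21%, background 10.2%) and 4 without MOTS-c 3 (3.60%, background 9.10%). The part of the slide and of the pancreatic signal of vehicle 3 in these values was not tested.

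**Figure D2:**
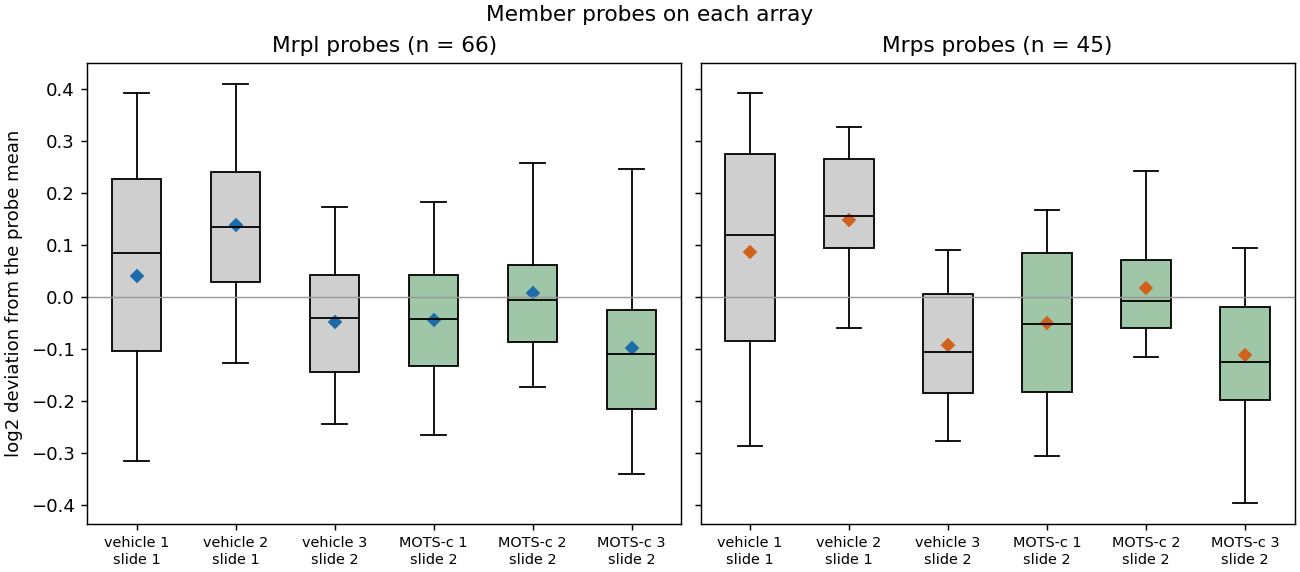
Deviation of each member probe from its mean over 6 arrays (log2), per array, for Mrpl and Mrps; boxes span the 25th to 75th percentile, whiskers the 5th to 95th, diamonds are means, vehicle is grey and MOTS-c green. By their means, vehicle 1 and 2 sit highest and vehicle 3 sits among the MOTS-c arrays, in both subunits.

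The large and the small subunit gave nearly the same values. Mrpl probes had a median difference of -0.089, with 45 negative and 21 positive, and Mrps probes one of -0.11, with 32 negative and 13 positive. At an unadjusted p under 0.05, 8 Mrpl probes were lower and 4 higher, and 6 Mrps probes were lower and 3 higher (all probes 13.7% and 12.2%). Groups did not overlap for 19 lower and 6 higher Mrpl probes and for 10 lower and 2 higher Mrps probes (all probes 16.7% and 17.7%). The Mrpl median minus the Mrps median was 0.024, and its sign turned in 8 of 15 alternative analyses. Mean deviations of Mrpl probes were 0.041, 0.14 and -0.048 in the vehicle arrays and -0.043, 0.0075 and -0.097 in the MOTS-c arrays, and those of Mrps probes 0.087, 0.15 and -0.093, then -0.051, 0.018 and -0.11. The 6 arrays ran in the same order in both subunits, from vehicle 2 as the highest to MOTS-c 3 as the lowest. A test between the subunits was not made, since genes are not replicates of a condition.

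The symbols do not follow the structure throughout. Mrps30 and Mrps18a sit in the large subunit, and Mrps36 is a part of the 2-oxoglutarate dehydrogenase complex and not of the ribosome. Sorted by structure, 68 large subunit probes had a median of -0.11 and 42 small subunit probes one of -0.087. The sign of the large minus the small subunit median turned in 1 of 15 alternative analyses, with values from -0.061 to 0.00084. Within the large subunit, the 42 probes of proteins with bacterial relatives had a median of -0.14 (27 lower and 15 higher) and the 24 probes of proteins without a bacterial counterpart one of -0.082 (18 lower and 6 higher). Within the small subunit the medians were -0.12 over 25 probes (18 lower and 7 higher) and -0.047 over 17 probes (11 lower and 6 higher), where the 3 probes of Mrps18b, a relative of S18 at another place in the subunit, were counted with the latter. Mrps30 differed by -0.24 ± 0.19 and Mrps18a by -0.12 ± 0.15, and with slide as a block they turned to 0.16 and 0.13.

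Of the large subunit, Mrpl50, a protein found only in mitochondrial ribosomes, had the smallest adjusted p. Its signal (probe at chr4:49527089-49527148, mm9) was 9.37, 9.01 and 8.93 in the vehicle arrays and 8.32, 8.67 and 8.26 in the MOTS-c arrays, a difference of -0.69 ± 0.18 (1.61-fold lower, limma adjusted p 0.100). All 3 MOTS-c values lay below all vehicle values, and with slide as a block the difference was -0.52.

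Mrpl57, another large subunit protein with no bacterial relative, read 14.37, 14.35 and 14.00 in the vehicle and 13.74, 13.78 and 13.62 in the MOTS-c arrays, a difference of -0.53 ± 0.15 (adjusted p 0.112). Vehicle 3 lay between the other vehicle arrays and the MOTS-c arrays, and the block value was -0.29. Mrpl28, a relative of bacterial L28, read 11.23, 10.86 and 10.62 against 10.26, 10.49 and 10.32, a difference of -0.55 ± 0.18 with no overlap. Mrpl53, a mitochondria-specific protein, read 13.06, 12.79 and 12.93 against 12.37, 12.61 and 12.55. Here vehicle 3 lay between the other vehicle arrays, and the difference of -0.42 ± 0.14 was -0.42 with the block as well. Mrpl22, a relative of L22 of the exit tunnel, differed by -0.42 ± 0.14 in one probe and by -0.32 ± 0.16 in the other, both without overlap, and by -0.26 and -0.11 with the block.

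Among small subunit genes, Mrps18c, one of 3 relatives of bacterial S18, was the lowest by its p. Its probe at chr5:101233411-101233470 (mm9) read 13.14, 12.96 and 12.80 in the vehicle arrays and 12.49, 12.52 and 12.25 in the MOTS-c arrays, a difference of -0.54 ± 0.15 (adjusted p 0.110). A second probe that overlaps it read 13.54, 13.34 and 13.20 against 12.88, 13.00 and 12.70, a difference of -0.50 ± 0.15. Both probes keep the groups apart, but they share most of their bases and so are not separate readings.

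The paralogs of Mrps18c gave smaller values. Mrps18b, the small subunit paralog, differed by -0.37, -0.12 and -0.11 in 3 probes, all of which turned positive with the block (0.026, 0.26 and 0.27), and Mrps18a differed by -0.12. Whether the paralogs differ from each other was not tested.

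Mrps11, a relative of S11 of the platform, read 10.30, 10.23 and 9.95 in the vehicle arrays and 9.77, 9.72 and 9.47 in the MOTS-c arrays, a difference of -0.51 ± 0.16 (adjusted p 0.124). Mrps28, another small subunit protein, read 13.16, 13.09 and 12.50 against 12.22, 12.50 and 12.22, a difference of -0.60 ± 0.21. The groups of Mrps11 were apart, while vehicle 3 and MOTS-c 2 of Mrps28 were level at 12.50. With the block these were -0.30 and -0.19.

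Mrps36, the 2-oxoglutarate dehydrogenase subunit, read 12.60, 12.56 and 12.45 in the vehicle and 11.97, 12.29 and 12.09 in the MOTS-c arrays, a difference of -0.42 ± 0.14 that was -0.33 with the block. The other lower probes at an unadjusted p under 0.05, named after their values were seen, were 1 of 3 of Mrpl48 (-0.65 ± 0.24), 1 of 2 of Mrps22 (-0.44 ± 0.15) and those of Mrpl18 (-0.45 ± 0.16) and Mrpl16 (-0.42 ± 0.17). That Mrpl48 probe was dim, has no RefSeq accession and was -0.17 with the block. The brighter probes of Mrpl48 differed by only -0.15 and -0.087, and the other Mrps22 probe by -0.37. All 21 member probes at an unadjusted p under 0.05 kept their sign with the block, and 19 of them were smaller in size. The block value is the MOTS-c mean minus vehicle 3, so its sign cannot turn in a probe whose groups do not overlap. Among these 21 probes only that of Mrps33 had groups that overlapped, with vehicle 3 level with MOTS-c 3 at 7.85. For the others the kept signs therefore say nothing on the slide.

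A smaller group of genes had higher values after MOTS-c. Mrpl24, a relative of bacterial L24, which starts the assembly of the large subunit in bacteria, read 12.99, 13.33 and 13.53 in the vehicle arrays and 13.70, 13.87 and 13.92 in the MOTS-c arrays (probe at chr3:87727296-87727355, mm9). The difference was 0.55 ± 0.17 (adjusted p 0.127), all MOTS-c values were above all vehicle values, and the block value was 0.30. A second Mrpl24 probe (chr3:87724044-87724103), without a RefSeq accession in the table, read 5.71, 5.80 and 5.89 against 6.26, 6.06 and 6.38, a difference of 0.43 ± 0.14. With normexp background correction this dim probe differed by 0.23 and the first by 0.55.

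Mrps6, a relative of bacterial S6, read 10.82, 10.88 and 11.22 in the vehicle and 11.35, 11.45 and 11.52 in the MOTS-c arrays. The difference of 0.47 ± 0.15 (adjusted p 0.134) was 0.22 with the block, vehicle 3 being the highest vehicle array. Mrps15, a relative of bacterial S15, differed by 0.55 ± 0.20 in one probe (7.50, 7.03 and 7.27 against 7.52, 7.87 and 8.07) and by 0.26 ± 0.14 in the other, and by 0.55 and 0.33 with the block. In both probes vehicle 3 lay between the other vehicle arrays. The dimmer probe, with the difference of 0.55 ± 0.20, has no RefSeq accession, unlike the other.

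Mrpl35, a relative of bacterial L35, had the largest difference of all members in these values, 0.81 ± 0.33, against 0.42 with normexp and 0.33 with the block, where other members differed by more. Vehicle 1 at 4.70 lay far below vehicle 2 and 3 at 5.75 and 5.94, and the MOTS-c arrays read 6.21, 6.57 and 6.03 (adjusted p 0.186). Mrpl43, a mitochondria-specific large subunit protein, read 12.71, 13.14 and 13.34 against 13.38, 13.53 and 13.52, a difference of 0.41 ± 0.19. In both genes vehicle 1 was the lowest array and vehicle 3 lay next to the MOTS-c arrays. Mrps33 differed by 0.55 ± 0.21 in 1 of 3 probes, with vehicle 3 level with MOTS-c 3, and by 0.05 and 0.04 in the others. Mrpl38 differed by 0.42 ± 0.19 in 1 of 3 probes, which has no RefSeq accession, and by 0.095 and 0.024 in the others.

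**Figure D3:**
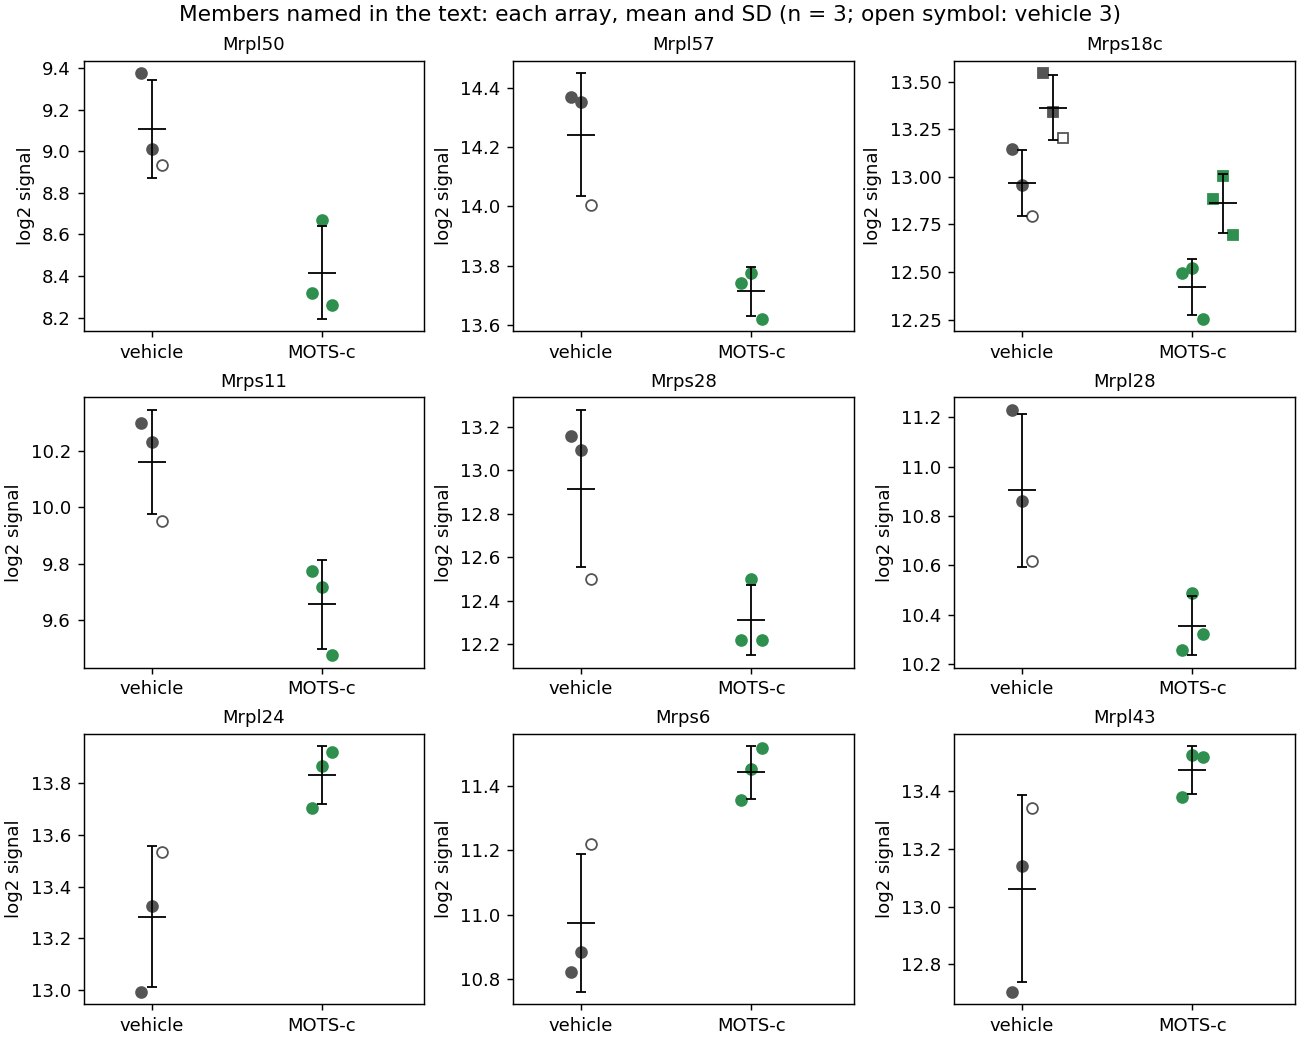
Log2 quantile-normalized signal per array (points) for 9 member genes in vehicle and MOTS-c, each panel with its own axis, with the mean and SD as bars (squares are the second Mrps18c probe, Mrpl24 is shown by its probe with a RefSeq accession, and the open symbol is vehicle 3, on the slide of the MOTS-c arrays). Mrpl50, Mrpl57, Mrps18c, Mrps11, Mrps28 and Mrpl28 are lower and Mrpl24, Mrps6 and Mrpl43 higher after MOTS-c, and in each panel vehicle 3 is the vehicle array nearest to the MOTS-c arrays.

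Several well-known members differed by less than their standard errors. Mrpl12, a relative of the L7/L12 stalk protein that also binds the mitochondrial RNA polymerase, read 12.44, 12.60 and 12.06 in the vehicle and 12.26, 12.38 and 12.25 in the MOTS-c arrays, a difference of -0.07 ± 0.17 that turned to 0.24 with the block. Mrps12, a relative of S12 of the decoding centre, differed by -0.07 ± 0.14 and by 0.10 with the block. In both, the MOTS-c values lay inside the vehicle range. The values nearest to 0 were -0.0062 for Mrpl33, 0.024 for a probe of Mrpl38 and 0.027 for Mrpl4 in the large subunit, and 0.0040 for a probe of Mrps2, -0.010 for one of Mrps21 and -0.023 for Mrps10 in the small subunit. The signs of Mrpl4 and Mrps2 turned to negative with 75th percentile scaling, at -0.15 and -0.030.

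A gene's probes did not always give the same sign. Of the 26 genes with several probes, 20 had probes of 1 sign, and 6 (Mrpl13, Mrpl21, Mrpl27, Mrpl47, Mrps21 and Mrps23) had probes of both. In Mrpl27, a relative of L27 near the peptidyl transferase centre, 3 probes differed by -0.34, -0.28 and -0.28, while the probe at chr11:94515618-94515677 (mm9) read 5.06, 5.11 and 5.30 in the vehicle and 5.63, 5.41 and 5.54 in the MOTS-c arrays, a difference of 0.37 ± 0.14. That probe has no RefSeq accession in the table, unlike the other 3, and differed by 0.16 with normexp background correction. Over the 10 member probes without such an accession the median was 0.17, with 4 lower and 6 higher, and over the 101 with one it was -0.12, with 73 lower and 28 higher. This split was made after the values were seen. Apart from the Mrps21 probe (vehicle mean 12.24), the probes without an accession were dim, with vehicle means of 4.92 to 8.96. Most probes with an accession were brighter, so accession and signal were not told apart. With normexp background correction the medians were 0.079 without and -0.11 with an accession. Of 43 pairs of probes for the same gene, 3 overlapped in position, and the median gap between the differences in a pair was 0.11.

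Of 6 further proteins of the mitochondrial ribosome that carry other symbols, none passed the test. Gadd45gip1, a large subunit protein, read 11.12, 11.24 and 10.84 in the vehicle and 10.44, 10.63 and 10.57 in the MOTS-c arrays, a difference of -0.52 ± 0.15 (adjusted p 0.115) with no overlap. Aurkaip1 of the small subunit differed by -0.26 ± 0.12 and Dap3, a GTP-binding small subunit protein, by -0.16 ± 0.12. On the positive side were Ict1, the large subunit peptidyl-tRNA hydrolase, at 0.27 ± 0.16, and the small subunit proteins Ptcd3 at 0.16 ± 0.12 and Chchd1 at 0.10 ± 0.14, the last of which was -0.13 with 75th percentile scaling. The 4 probes of Ptcd3 ranged from -0.0052 to 0.39. The median of the 6 was -0.028 and that of all probes 0.036.

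Factors that work with the ribosome had medians on either side of that of all probes, 0.036. Of 17 factors and enzymes of mitochondrial translation, 7 were lower and 10 higher, with 0 and 1 at an unadjusted p under 0.05 (all probes 13.7% and 12.2%) and a median of 0.10, or 0.029 with 75th percentile scaling. Pdf, which removes the formyl group of new mitochondrial proteins, read 9.58, 10.02 and 10.84 in the vehicle arrays and had a MOTS-c mean of 10.92 (0.78 ± 0.30, adjusted p 0.170), where vehicle 3 sat near the MOTS-c mean and the block value was 0.083. Its other probe differed by 0.60. Mtfmt, which formylates the initiator tRNA, differed by 0.27 ± 0.14, the elongation factor Tufm by 0.25 ± 0.16, the elongation factor Gfm1 by -0.34 ± 0.15 and the GTPase Guf1 by -0.40 ± 0.21. Of 29 factors of ribosome assembly and RNA modification, 13 were lower and 16 higher, with 2 and 4 at that level and a median of 0.025 that turned to -0.038 with 75th percentile scaling. Afg3l2, a subunit of the inner membrane protease that matures MRPL32, read 12.45, 11.71 and 11.76 against 11.04, 11.16 and 11.18, a difference of -0.85 ± 0.22 (adjusted p 0.0969) that was -0.63 with the block. Its other probe differed by -0.54. The GTPase Mtg2, which acts on the large subunit, differed by 0.54 ± 0.19, the methyltransferase-like protein Mettl17 by 0.47 ± 0.17 and the rRNA methyltransferase Nsun4 by 0.56 ± 0.23. Of these, Mettl17 and Nsun4 were 0.57 and 0.66 with the block, and the 3 probes of Nsun4 ranged from 0.29 to 0.56 without it.

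Among 12 of 13 listed genes of mitochondrial transcription and its nuclear regulators, 7 were lower and 5 higher, with a median of -0.015 (Ppargc1a had no probe in the table). Nrf1, the factor behind the NRF1 motif, read 12.46, 11.84 and 11.80 in the vehicle and 11.12, 11.26 and 11.23 in the MOTS-c arrays, a difference of -0.83 ± 0.20 (adjusted p 0.0910) and of -0.60 with the block. Its 3 probes ranged from -0.83 to -0.37. Esrra, a nuclear receptor of mitochondrial genes, read 10.99, 11.70 and 11.69 against 12.21, 12.14 and 12.25, a difference of 0.74 ± 0.21 (adjusted p 0.112) and of 0.52 with the block. Its other probe differed by 0.57. In both genes the 3 MOTS-c arrays lay close together, vehicle 2 and 3 were alike, and vehicle 1 was the farthest from MOTS-c. The RNA polymerase Polrmt differed by 0.35 ± 0.15, the coactivator Ppargc1b by 0.30 ± 0.13, the packaging factor Tfam by 0.21 ± 0.13 and the ETS-family factor Gabpa by -0.13 ± 0.15, which turned to 0.0071 with the block.

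The products and the cytosolic counterpart of the mitochondrial ribosome were read for comparison. Of 37 nuclear genes for subunits of complex I, which is built with mitochondrially made proteins, 33 were lower and 4 higher, with a median of -0.16, or -0.070 with the block and -0.38 with 75th percentile scaling. Of 11 mitochondrially encoded genes, 1 was lower and 10 higher, with a median of 0.10 that turned to -0.074 with 75th percentile scaling. Of 77 cytosolic ribosomal protein genes, 19 were lower and 58 higher, with a median of 0.046 that turned to -0.13 with that scaling. With 1 probe per gene, the brightest, the mitochondrial ribosomal protein genes had 55 lower and 22 higher values and a median of -0.10. Vehicle 3 was below both other vehicle arrays for 24 of the 37 complex I genes, as it was for most of the mitochondrial ribosomal protein genes, and for 16 of the 77 cytosolic ones. Tests between these lists were not made.

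**Figure D4:**
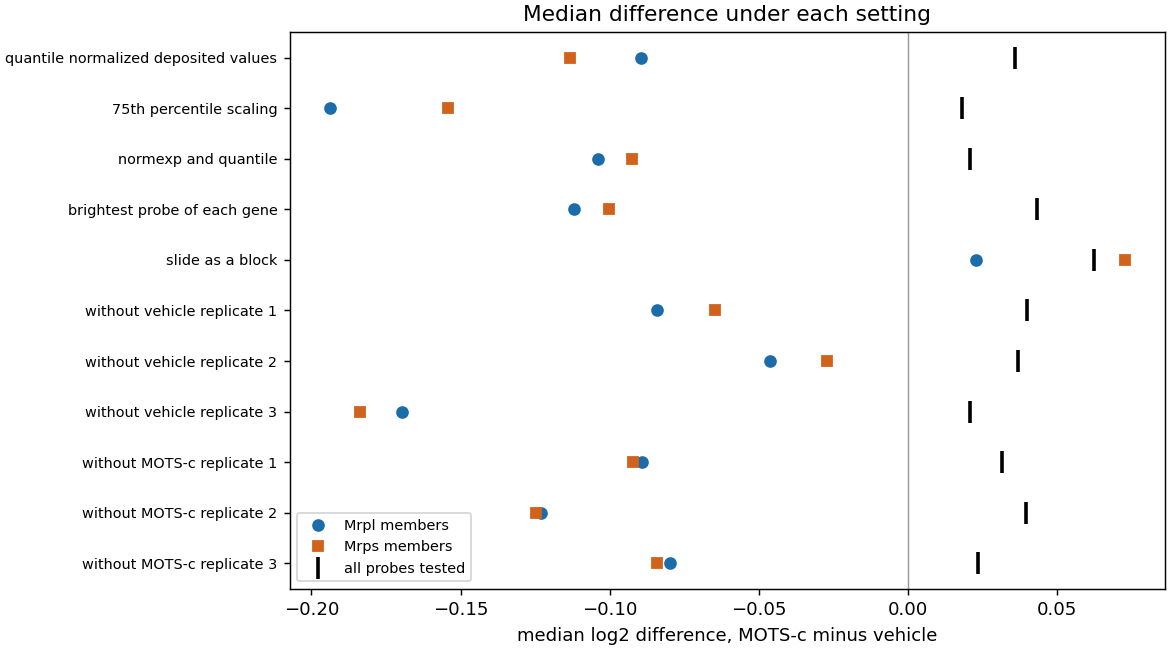
Median difference of MOTS-c minus vehicle (log2) over Mrpl probes, Mrps probes and all probes (bar) under 11 ways of analysis. With slide as a block, as within slide 2, the member medians are above 0 (0.023 for Mrpl and 0.073 for Mrps), where that of all probes is 0.062; under the other settings shown they are below 0.

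Marker genes of several cell types differed in the same arrays, none past the adjusted threshold, and in whole tissue fewer cells of a type and less RNA per cell cannot be told apart. All 17 tested red cell precursor genes were lower with MOTS-c (median -1.07, or -1.16 with the block). The log2 of their summed signals was 19.1 to 19.6 in the vehicle and 18.4 to 18.5 in the MOTS-c arrays. All 20 genes of dividing cells were lower (median -1.02, block -0.96), with the log2 of the summed signals at 18.3 to 18.8 and 17.5 to 17.8. All 15 T cell genes were higher (median 1.05, block 0.55), at 15.0 to 16.5 and 17.0 to 17.1, and all 12 B cell genes were higher (median 0.85, block 0.67), at 15.5 to 17.1 and 17.3 to 17.5. Of the defining markers, Slc4a1 of red cells differed by -1.11 ± 0.18 and Mki67 of dividing cells by -0.91 ± 0.16 (limma adjusted p 0.0820 each), and Cd3e of T cells by 1.05 ± 0.42. All 10 tested NK cell genes were higher (median 1.00, block 0.52), at 12.4 to 14.2 and 14.4 to 15.0, and all 7 dendritic cell genes (median 0.65, block 0.46), at 15.9 to 16.3 and 16.2 to 16.4. All 10 neutrophil genes were higher (median 0.97), at 16.6 to 18.4 and 17.2 to 18.9, and all 6 platelet genes (median 0.21), at 15.7 to 16.9 and 16.5 to 17.0, but their medians turned to -0.060 and -0.25 with the block. Of 10 macrophage genes 8 were higher (median 0.17, block 0.057), at 17.7 to 17.9 and 17.9 to 18.2, and of 6 plasma cell genes 5 were higher (median 0.16, block 0.34), at 16.1 to 16.7 and 16.6 to 17.0. By mean deviation, vehicle 1 was the lowest array of the T cell, B cell, NK cell and dendritic cell lists (-1.48, -1.39, -1.52 and -0.77). Vehicle 2 was at -0.084, 0.24, 0.11 and 0.075 in these lists. The mean deviation of vehicle 3 lay within that of vehicle 1 and 2 for the red cell and cycle lists (0.61 and 0.48) and the B cell, NK cell and dendritic cell lists (-0.19, -0.071 and -0.15). It lay above both, on the side of the MOTS-c group, for the neutrophil (0.69), platelet (0.36), T cell (0.020) and macrophage (-0.036) lists, and below both for the plasma cell list (-0.27). The part of these cells in the members' differences was not tested.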

How the data were processed

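Per the file headers, Agilent Feature Extraction 11.0.1.1 gave a background-subtracted processed signal intensity per spot. The authors deposited a table of 31692 probes with these intensities, their quantile-normalized log2 values, a score that is the signed MOTS-c to vehicle fold, and a p-value with its adjustment. Processed signals equalled the scanner output for 100% of probes (relative tolerance 0.0001). The annotation gives mm9 positions.

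The log2 values were fitted with limma 3.58.1 in R 4.3.3 (lmFit and eBayes, two-sided, Benjamini-Hochberg over all 31692 probes, threshold 0.05), with no filter added. An exact permutation test of 3 against 3 arrays cannot go below 0.1. On simulated data of that size, 34 of 100 probes changed by 1 on the log2 scale were called, 77 of 100 changed by 2, and 1 of 31492 unchanged. The simulated noise was independent between probes and held no slide effect, so these rates may not hold for the arrays here. The number of arrays limits the precision.

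Groups and replicate numbers came from the titles, and the description gives another number for vehicle 3 and MOTS-c 3. Same-numbered samples correlated at -0.18, -0.0024 and -0.087 in their deviations, so numbers were not taken as pairs. Alternatives were 75th percentile scaling of the processed signals, normexp (offset 50, on the median signal, the files holding no mean signal) with quantile normalization, centring, a wider probe set, the brightest probe per gene, an eBayes trend, slide as a block, slide 2 alone, a replicate block and leaving out each array. The members and all lists were chosen with earlier results of these data known. Named were the 10 lower and 10 higher member probes with the smallest p, the 3 per subunit nearest to 0, genes with probes of both signs, Mrps18 paralogs, Mrpl12, Mrps12, Mrps30, Mrps36, and up to 4 genes per further list by p beside fixed ones. List genes were read by their brightest probe. Promoter windows were matched by symbol. One marker gene chosen by that rule is not reported here.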

Additional observations from a re-analysis of the deposited data

How the results depend on the processing

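No member passed the adjusted threshold under any of the 15 alternatives, where the smallest adjusted p of a member ranged from 0.0592 (eBayes trend) to 0.562 (slide as a block). With slide as a block, and equally within slide 2, the median difference turned to 0.047 for all members, 0.023 for Mrpl and 0.073 for Mrps, and the Mrpl minus Mrps median to -0.050. With 75th percentile scaling, on either probe set, the Mrpl median was -0.19, Mrpl minus Mrps -0.040 and large minus small subunit by structure -0.061. The last was -0.054 with the brightest probe per gene. Leaving out 1 array at a time, the Mrpl median ranged from -0.17 to -0.046 and Mrpl minus Mrps from -0.019 to 0.014. With a replicate block, which assumes a pairing by number that the data did not show, the median was -0.10, and an unadjusted p under 0.05 was reached by 10 lower and 4 higher members, where 3670 lower and 3024 higher of all 31692 probes reached it.

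The sign turned for these named values. With slide as a block, and within slide 2, they were Gabpa 0.0071, Mrpl12 0.24, Mrpl21 0.083, Mrpl47 0.026, Mrps10 0.23, Mrps12 0.10, Mrps18a 0.13, Mrps18b 0.026, 0.27 and 0.26, Mrps23 0.12 and Mrps30 0.16. With 75th percentile scaling, on either probe set, they were Chchd1 -0.13, Mrpl21 -0.070, Mrpl4 -0.15, Mrps2 -0.030, Mrps21 -0.055 and Mrps23 -0.0996. With centring they were Mrpl38 -0.012, Mrpl4 -0.0088, Mrps2 -0.032 and Mrps23 -0.0031. Without 1 array at a time the ranges crossed 0 for Mrpl12 (-0.22 to 0.049), Mrpl21 (-0.087 to 0.026), Mrpl33 (-0.038 to 0.051), Mrpl38 (-0.056 to 0.13), Mrpl4 (-0.038 to 0.10), Mrps10 (-0.15 to 0.11), Mrps12 (-0.16 to 0.021), Mrps18b (-0.31 to 0.041), Mrps2 (-0.085 to 0.11), 2 probes of Mrps21 (-0.073 to 0.017 and -0.064 to 0.063) and 2 of Mrps23 (-0.10 to 0.023 and -0.074 to 0.11). The cause was not tested. All member probes were well above background on every array, but the dim probe of Mrpl35, with vehicle 1 at 4.70 near the lowest value of the table (4.17), had a standard error of 0.33.

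Over all probes, the eBayes trend called 661 lower and 60 higher, leaving out vehicle 2 called 712 and 60, and leaving out vehicle 3 called 30 and 9.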
